A study of Mus musculus with 13 samples.

Results

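Thymocytes in G2 and mitosis were taken here as cells of mouse thymic lobes in which transcripts of 6 mitotic genes were abundant and not outweighed by transcripts of 8 S-phase genes. M was the number of UMIs (unique molecular identifiers, each standing for 1 captured transcript) of Aspm, Cenpf, Cenpe, Hmmr, Kif14 and Depdc1b in a cell, and S was the number for Cdc6, Pola1, Hells, Pole, Ccne2, Dtl, Mcm10 and Lig1. A cell was gated when M was at least 6 and at least 2 times S, the cell held 500 to 25000 UMIs, and Il2ra, the interleukin 2 receptor alpha chain of earlier double-negative thymocytes, had at most 1 UMI. The gate took 5103 of the 56633 cells within the UMI and Il2ra limits, against 148709 cells in both cell tables of the series. The remaining 51530 cells within the limits served as the other cells, and 3962 of them passed the mirror gate, with S at least 6 and at least 2 times M, and are called S-phase cells below. Of the other cells, 3648 had M of at least 6 but failed the ratio to S. Those of them that failed the mirror gate too stayed in comparisons without the S-phase cells.

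The cells came from thymi of 2-month-old female C57BL/6N mice, dissociated and fixed lobe by lobe and barcoded by split-pool ligation with 2 sizes of the same kit, Parse WT and Parse Mini. Each kit held 4 thymic lobes of 2 mice, named WT 1 to WT 4 and Mini 1-A, 1-B, 2-A and 2-B here, and the Mini mice were other animals than the WT mice. The Mini libraries are labelled as control; the label of the WT libraries also names spleen and chronic stress, and the WT kit also carried 16 samples of another project, which were not used here. Which lobes share a mouse could not be read from the cell tables for certain, so p-values over 8 lobes were too small. With lobes summed to 4 assumed animals, 5044 genes were called against the other cells and 5503 against S-phase cells, and all 100 and 82 named genes followed in these comparisons kept their direction, with no call lost. Kit, day of work and animals cannot be told apart.

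Cells in G2 and mitosis carry replicated chromosomes and build the spindle that separates them. The cyclin B and Cdk1 kinase drives entry into mitosis, and the anaphase-promoting complex with its activator Cdc20 ends it by marking cyclin B and securin for destruction. In the thymus, most division follows beta selection, when a working T cell receptor beta chain pairs with the pre-TCR alpha chain and cells pass from the double-negative to the double-positive stage; small double-positive cells then rest while they recombine the alpha chain. Genes of late cell cycle often share a CHR element (cell cycle genes homology region, TTTGAA or TTCGAA) and CCAAT boxes near the transcription start, where the DREAM, MuvB and NF-Y complexes bind.

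Promoter windows of 3 gate genes with a CHR letter match close to the start, 1 gate gene without it (Cenpe) and Cdc20, which the gate did not use, are shown so that the shared letters can be seen. The windows run from 250 bases before to 50 bases after the RefSeq start on GRCm38.p6, written 5′ to 3′ along the gene, with the CHR spellings and CCAAT boxes of either strand in capitals; a box on the opposite strand reads ATTGG. They lie at chr1:139454523-139454822 (plus strand) for Aspm, chr1:189688037-189688336 (minus strand) for Cenpf, chr11:40733388-40733687 (minus strand) for Hmmr, chr3:135212313-135212612 (plus strand) for Cenpe and chr4:118437294-118437593 (minus strand) for Cdc20.
Aspm: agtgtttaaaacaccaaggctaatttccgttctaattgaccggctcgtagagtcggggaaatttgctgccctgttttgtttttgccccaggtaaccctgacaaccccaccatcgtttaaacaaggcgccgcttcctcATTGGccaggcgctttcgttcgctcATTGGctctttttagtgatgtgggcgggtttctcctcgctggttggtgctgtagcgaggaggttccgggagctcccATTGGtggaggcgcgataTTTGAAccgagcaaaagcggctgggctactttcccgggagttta
Cenpf: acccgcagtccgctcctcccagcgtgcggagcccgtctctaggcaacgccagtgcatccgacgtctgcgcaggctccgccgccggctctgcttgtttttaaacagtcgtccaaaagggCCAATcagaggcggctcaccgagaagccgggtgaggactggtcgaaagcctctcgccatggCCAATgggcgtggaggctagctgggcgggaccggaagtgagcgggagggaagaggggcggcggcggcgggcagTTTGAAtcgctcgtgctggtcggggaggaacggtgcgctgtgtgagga
Hmmr: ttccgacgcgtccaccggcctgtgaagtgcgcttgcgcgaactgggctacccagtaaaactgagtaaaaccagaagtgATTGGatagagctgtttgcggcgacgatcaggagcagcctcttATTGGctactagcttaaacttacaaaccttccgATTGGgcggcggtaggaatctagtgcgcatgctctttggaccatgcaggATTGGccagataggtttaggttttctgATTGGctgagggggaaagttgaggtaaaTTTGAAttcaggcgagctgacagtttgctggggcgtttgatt
Cenpe: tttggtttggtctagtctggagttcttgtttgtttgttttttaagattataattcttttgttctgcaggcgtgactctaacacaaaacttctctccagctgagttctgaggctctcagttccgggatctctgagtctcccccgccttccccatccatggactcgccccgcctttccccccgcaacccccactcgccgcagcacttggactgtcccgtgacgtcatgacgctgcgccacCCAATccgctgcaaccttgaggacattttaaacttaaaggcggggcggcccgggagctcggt
Cdc20: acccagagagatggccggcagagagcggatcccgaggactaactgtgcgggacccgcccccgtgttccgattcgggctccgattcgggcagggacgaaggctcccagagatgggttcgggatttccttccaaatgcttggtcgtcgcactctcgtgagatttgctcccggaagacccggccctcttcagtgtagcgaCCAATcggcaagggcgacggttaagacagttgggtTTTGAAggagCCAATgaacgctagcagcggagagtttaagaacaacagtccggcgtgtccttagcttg

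In Aspm, Cenpf and Hmmr, TTTGAA began 7, 3 and 9 bases after the start, and in Cdc20 it began 18 bases before it. Ccnb1, another mitotic gene that the gate did not use, held no CHR spelling and 2 CCAAT boxes. Kif14 held TTTGAA 228 bases before the start used for its window. That window began at chr1:136467598 (plus strand), inside the gene, which starts at chr1:136466343 in GENCODE M21. Cenpe had neither CHR spelling in its window, and no window was at hand for Depdc1b. CCAAT occurred in all 5 gate windows, 5 times in Hmmr and 3 times in Aspm, and no 2 motif matches overlapped in the windows shown. Over the first window of each of 27025 genes, 19.4% held a CHR spelling and 37.9% held CCAAT. Of 75 genes in 5 lists of mitotic genes described below, 60 had a window; 71.7% of those held a CHR spelling and 66.7% held CCAAT, while the 25 windows of 33 replication genes held them in 20.0% and 64.0%. The E2F spellings TTCGCGC or TTGGCGC, searched on both strands, were found in 3.98% of all windows, 16.7% of the mitotic and 32.0% of the replication windows. A match is a description of letters in the window and not a measured binding site.

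The 8 lobes held 4178 to 15077 cells and 28057164 to 124106974 UMIs each. WT 1 was the lobe with fewest cells, 4178, and 222 gated cells. The gated share of eligible cells was 5.78% in WT 1, 10.12% in WT 2, 8.01% in WT 3 and 11.1% in WT 4. It was 9.36% in Mini 1-A, 7.95% in Mini 1-B, 8.27% in Mini 2-A and 6.14% in Mini 2-B. The exact 95% binomial interval, which covers counting error only, ran from 5.06 to 6.57% in WT 1 and from 10.58 to 11.64% in WT 4, so the lobes of 1 kit differed by more than counting error. The mean was 8.75% ± 2.36 (SD, n = 4 lobes) in WT and 7.93% ± 1.34 in Mini. The kits overlapped, and the difference of 0.822 percentage points gave p = 0.571 in an exact two-sided permutation test over lobes, where the smallest p possible is 0.0286. First-round wells of 1 lobe differed by a ratio of 1.03 to 1.56, the widest in WT 1 with wells at 4.52 and 7.04%.

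**Figure D1:**
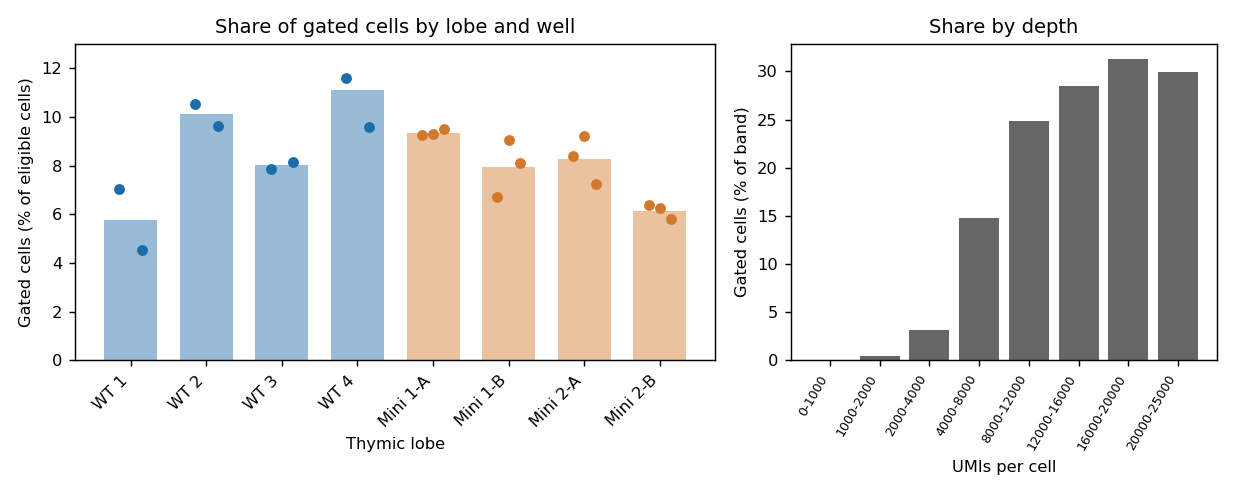
Left, share of eligible cells that passed the G2 and mitosis gate in each thymic lobe (bars, percent; blue WT, orange Mini) with its first-round barcoding wells as points. Right, the same share over all lobes by UMIs per cell; the lobes span 5.78 to 11.1%, and the share climbs from 0.037% below 1000 UMIs to 31.3% between 16000 and 20000.

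Gated cells were deep cells. Their median was 6578 to 10385 UMIs per lobe against 1995 to 3211 in the other cells, a ratio of 3.28 ± 0.216 (SD, n = 8 lobes), and the 2 sets of medians did not overlap. A floor of 6 UMIs on M selects for depth, so this ratio is partly set by the rule: 0.037% of cells with up to 1000 UMIs were gated, 3.18% of those with 2000 to 4000, 14.7% with 4000 to 8000 and 31.3% with 16000 to 20000. The gated cells held 17.6% ± 3.08 of the eligible UMIs. S-phase cells, gated with the same floor, had nearly the same depth, with a ratio of medians of 1.09 ± 0.069. Comparisons with the other cells were therefore repeated at equal depth, with 5094 other cells drawn to the same UMIs (median 8839, against 8822 in the gated cells), of which 21.1% were S-phase cells and 24.7% had M of at least 6 without passing the ratio to S. Values at equal depth, and values against other cells without the S-phase cells, are given for genes of this comparison where the call was lost or gained or the log2 fold change moved by over 1.5 times. Of 10686 genes tested at equal depth, 18.6% passed as higher and 16.2% as lower.

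Within the gate, Cenpe, the kinetochore motor CENP-E, gave 32.1% of all M UMIs, and Cenpf, a large kinetochore and nuclear matrix protein, gave 28.7%. Aspm, which focuses spindle poles, gave 13.6%, and Hmmr, Kif14 and Depdc1b gave 8.42 to 8.61% each; these shares are UMIs and are not scaled by transcript length. All 6 genes were detected in 33.6% of gated cells and 5 of 6 in a further 32.0%. M was 6 to 9 in 20.4% of them, 10 to 19 in 43.8%, 20 to 29 in 21.6% and 30 or more in 14.2%. The floor cut through a continuous range: 263 cells with M of 5 and 290 with M of 6 met the ratio to S, at median depths of 4471 and 5600 UMIs. The cells were thus selected on measured values, the UMIs of the 15 genes and the UMI total, so these values are a description with no test.

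The gated cells carried the T cell markers Cd3e, Cd247, Lck, Tcf7, Bcl11b and Themis at a summed level of 9344 to 12070 CPM (UMI counts scaled to a common total, outside 3 ribosomal RNA genes) per lobe, against 9573 to 12980 in the other cells. Markers of other cell types were low in summed level. Over all genes tested, 19.1% rose and 18.5% fell in this comparison, and the counts of markers below are read against these shares. The 7 B cell markers summed to 71.4 to 167 CPM against 98.1 to 328 in the other cells; 4 of 7 fell, among them Pax5, the B lineage factor, at 1.72 to 18.1 CPM against 6.77 to 48.4 (log2 fold change −0.91, edgeR adjusted p = 0.0002, and −0.54, adjusted p = 0.0191 at equal depth). At equal depth 2 of the 5 B cell markers tested fell. The 8 dendritic and antigen-presenting markers summed to 12.4 to 186 CPM against 96.9 to 171, and 2 of 8 fell, while 4 of the 6 tested at equal depth fell, against 16.2% of all genes there. The 7 myeloid markers summed to 10.9 to 60.5 CPM against 19.2 to 31.7; 1 of 7 rose, the neutrophil alarmin gene S100a9, at 0.299 to 22.5 CPM against 0.282 to 5.54 (log2 fold change 0.69, edgeR adjusted p = 0.028), and this call was lost without WT 1 (0.35, adjusted p = 0.159) or without Mini 2-B (0.60, adjusted p = 0.0572). It was also lost with M of at least 10 (0.11, adjusted p = 0.855) and without the S-phase cells (0.56, adjusted p = 0.079). Within the gate S100a9 was at 13.7 CPM in cells with M of 6 to 9, 6.72 at 10 to 19 and 1.47 at 20 or more. None of 3 erythroid markers and not the single epithelial marker tested, Epcam (2.89 CPM in the gated and 2.83 in the other cells), passed the threshold. Krt5 and Foxn1 had 1 UMI each over all gated cells. The paper called doublets in both Parse libraries and removed them. Here no doublet caller was run and such cells were kept, and the part of cells caught together was not tested.

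Across all genes outside the rule, 13930 were tested between gated and other cells, with counts summed per lobe and class; 5247 (37.7%) passed an adjusted p of 0.05, 2663 (19.1%) higher and 2584 (18.5%) lower in gated cells. The mitotic genes outside the rule were far higher, which a gate on 6 genes of the same programme could hardly avoid. Their calls and p-values, here and below, describe the gate and are no independent support. In 5 lists (cyclins and kinases, spindle proteins, kinetochore, chromosome condensation and cytokinesis), 75 of 75 genes were higher in all 8 lobes. Against other cells of the same depth 74 of 75 were past the threshold; the exception, Pkmyt1, an inhibitory Cdk1 kinase, went from a log2 fold change of 0.49 to −0.01 there, and to 1.13 without the S-phase cells among the other cells.

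Mki67, which coats mitotic chromosomes and is the usual proliferation marker, had 1649, 1974 and 2389 CPM (lowest, median and highest lobe) in gated cells and 370, 461 and 635 in the other cells. Top2a, the topoisomerase that untangles sister chromatids, had 1318, 1422 and 1714 CPM against 251, 340 and 483. The lobes of the 2 classes did not overlap for either gene, as was so for 7.06% of all genes tested. Mki67 was detected in 99.7% ± 0.21 (SD, n = 8 lobes) of gated cells, in 60.1% ± 10.8 of other cells of the same depth and in 30.9% ± 9.29 of all other cells. Nearly every gated cell held Mki67, which the rule had not used but which belongs to the same programme and is no independent support.

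Among cyclins and kinases the median log2 fold change was 2.13. Ccnb1 (cyclin B1) had 66.3, 91.2 and 106 CPM in gated and 7.29, 12.1 and 14.6 CPM in other cells, a log2 fold change of 2.85. Ccna2 (cyclin A2) followed with 2.20, Cdk1 with 2.25, Plk1 with 2.31, Aurka, the spindle pole kinase, with 2.44, Nek2, which splits centrosomes, with 2.69 and Cdc25c, the phosphatase that activates Cdk1, with 2.72. The smallest changes belonged to the 2 kinases that hold Cdk1 back, Wee1 (1.01, and 0.62 at equal depth) and Pkmyt1 (0.49). Only for Pkmyt1, at 10.3 to 22.8 against 7.35 to 15.7 CPM, did the lobes of the classes overlap among the genes named in this paragraph.

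The spindle list had a median log2 fold change of 2.15. It ran from 1.60 in Ckap5, a microtubule polymerase, to 2.59 in Ckap2, with Kif11, the motor that pushes poles apart, at 2.07, Tpx2, which activates Aurora A, at 2.38, Prc1, which bundles the central spindle, at 2.35 and Kif18b at 2.53. The kinetochore list had a median of 1.96, with Sgo2a, a protector of centromeric cohesion, at 2.38 and Cenpa, the centromeric histone H3, at 2.36 (123, 162 and 192 CPM in gated and 22.9, 29.9 and 37.4 in other cells). Knl1, a scaffold of the outer kinetochore, was at 2.16, Incenp at 1.86 and Kntc1, of the checkpoint complex, lowest at 0.81 (0.32 at equal depth and 1.39 without the S-phase cells). Every kinetochore gene named here was higher in each gated sum than in any sum of other cells. Classes were apart, in either direction, for 7.06% of all genes tested.

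Chromosome condensation genes had a median log2 fold change of 1.46 and ran from 0.62 in Smc4, a condensin core subunit (1241, 1338 and 1484 CPM in gated and 690, 897 and 1050 in other cells), and 0.78 in Ncapd3 to 2.15 in Cdca2. The 9 cytokinesis genes had a median of 2.12, with Ect2, the exchange factor that sets the cleavage furrow, at 2.25, Cep55, which acts in abscission, at 2.30 and Diaph3 at 1.71. In the list of mitotic exit, 7 of 8 were higher: Ube2c, the ubiquitin-conjugating enzyme of the anaphase-promoting complex, had 46.1, 82.3 and 114 CPM against 5.67, 10.3 and 17.8 (2.67), Cdc20 had 41.6, 61.7 and 89.9 against 6.08, 8.76 and 14.5 (2.62), and Cdc27, a core subunit, was at 0.50. Pttg1, which encodes securin, had a median of 9.64 CPM over lobes in gated and 8.82 in other cells (0.07, edgeR adjusted p = 0.81, and 0.01 without the S-phase cells), with overlapping lobes. Of the mitotic genes in the lists it was the one that did not pass.

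Of 8 regulators of the programme, 6 rose, 1 fell and 1 did not pass, where 19.1% of all genes rose and 18.5% fell. Foxm1, the transcription factor of late cell cycle genes, had 61.9, 112 and 148 CPM in gated and 19.01, 24.0 and 30.3 CPM in other cells (log2 fold change 2.05). Mybl2, its partner in the MuvB complex, did not pass (−0.08, edgeR adjusted p = 0.44), and E2f1, the activator of S-phase genes, fell by 0.63 on the log2 scale (edgeR adjusted p = 0.00044; 1 of 8 lobes higher). Both values changed with the cells compared. At equal depth Mybl2 was at −0.50 (adjusted p = 6.17e-06) and E2f1 at −1.001 (adjusted p = 7.53e-08). Without the S-phase cells among the other cells, Mybl2 was at 0.61 (adjusted p = 0.000129) and E2f1 at 0.18 (adjusted p = 0.324). With at most 10000 UMIs per cell Mybl2 was at 0.57 and E2f1 at −0.05 (adjusted p = 0.859).

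**Figure D2:**
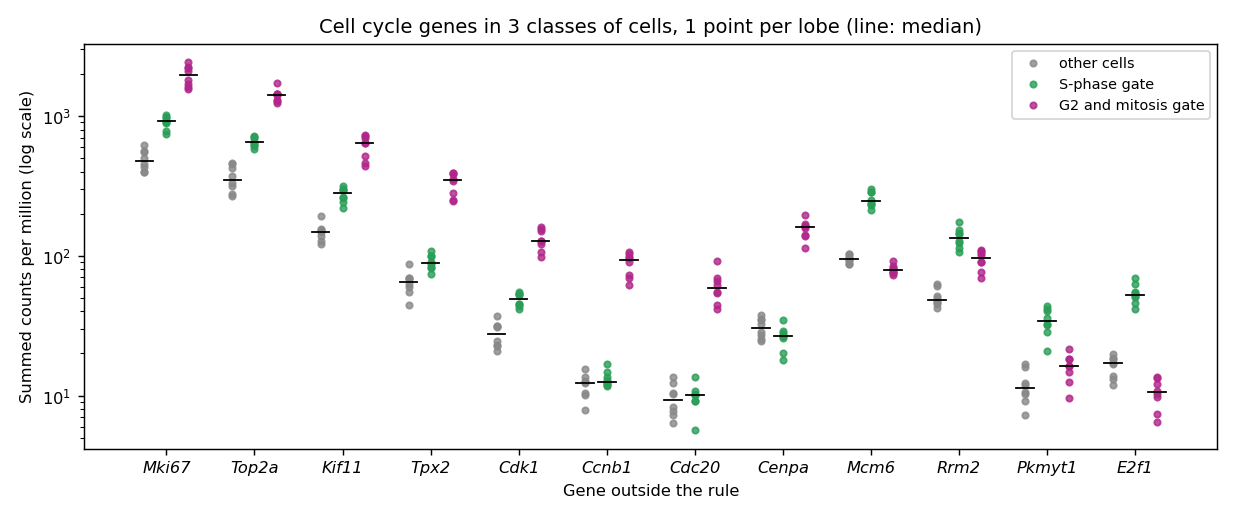
Level of 12 cell cycle genes outside the rule in 3 classes of cells, in CPM on a log axis; each point is 1 of 8 lobes and each line the median. Mki67, Top2a, Kif11, Tpx2, Cdk1, Ccnb1, Cdc20 and Cenpa are highest in gated cells; Mcm6, Rrm2, Pkmyt1 and E2f1 are highest in S-phase cells.

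The 69 replication-dependent histone genes, which package new DNA and whose transcripts mostly lack a poly(A) tail, were mostly higher in gated cells. Of 54 tested, 53 rose against the other cells, with a median log2 fold change of 1.29 where the median of all genes was −0.008, and 41 of 44 tested rose against S-phase cells (median 0.72, all genes 0.014). At equal depth 42 of 43 rose (median 0.98), against 18.6% of all genes. The summed histone level was 1023 to 1952 CPM per lobe in gated cells, 657 to 1289 in S-phase cells and 509 to 897 in other cells. The lobe ranges of gated and S-phase cells overlapped in that sum, but gated cells were higher within every lobe. The names of both gates rest on transcripts of the rule alone. How many gated cells were still in S phase was not tested. Histone copies are nearly identical in sequence, so the division of reads among single copies is uncertain.

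Replication genes in gated cells stood between S-phase cells and the rest of the other cells. Against all other cells, 20 of 33 rose and 5 fell (median log2 fold change 0.28); against other cells of the same depth 4 rose and 15 fell (median −0.11), and against other cells without the S-phase cells 30 rose and none fell (median 0.75), where 21.7% of all genes passed as higher and 20.8% as lower. Rrm2, the regulated subunit of ribonucleotide reductase, had 79.8, 96.3 and 111 CPM in gated and 40.5, 48.4 and 62.2 in other cells (0.92, with 0.44 at equal depth and 1.45 without the S-phase cells), and Rrm1 was at 0.82 (0.43 and 1.26). Mcm6, a subunit of the replicative helicase, had 73.9 to 91.4 against 81.3 to 106 CPM (−0.18, edgeR adjusted p = 0.0017) and was at −0.51 (adjusted p = 1.83e-09) at equal depth and 0.34 (adjusted p = 7.72e-05) without the S-phase cells. The rule set an upper limit on S-phase transcripts, so the calls and p-values of replication genes and of E2f1 describe the rule too.

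Genes of the nuclear envelope rose in 10 of 12 cases with a median of 0.43, and in 7 of 12 with a median of 0.29 at equal depth, against 19.1% and 18.6% of all genes. Tmpo (lamina-associated polypeptide 2) had 364, 426 and 497 CPM in gated and 151, 178 and 192 in other cells (1.30, edgeR adjusted p = 1.5e-11), and Lmnb1 (lamin B1) was at 0.98 (adjusted p = 4.8e-11). Lmna (lamin A/C) had 2.41 to 9.03 against 5.10 to 10.3 CPM and did not pass (−0.20, adjusted p = 0.26). The lobes of the classes were apart for Tmpo and Lmnb1 and overlapped for Lmna.

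Most inhibitors of cyclin-dependent kinases named here rose. Cdkn3, a phosphatase that acts on Cdk1 and Cdk2, had 21.3, 28.2 and 32.7 CPM in gated and 2.30, 4.08 and 5.67 in other cells (log2 fold change 2.74), Cdkn2c (p18) was at 1.85 and Cdkn2d (p19) at 1.00 (edgeR adjusted p = 7.9e-12, 6.7e-11 and 3e-09), and none of the 3 overlapped between classes. Cdkn1b (p27), which holds resting thymocytes, rose by 0.25 (adjusted p = 5.7e-06) with overlapping lobes. Cdkn1a (p21), added after its values were seen as the inhibitor that fell, had 1.41 CPM in gated and 2.01 in other cells (−0.60, adjusted p = 0.029, 2 of 8 lobes higher) and did not pass without the S-phase cells (−0.40, adjusted p = 0.138). Of the D cyclins, Ccnd2 had 43.9, 51.3 and 62.4 CPM against 69.4, 82.6 and 99.5 (−0.65, edgeR adjusted p = 1.8e-08). Ccnd3, the D cyclin of dividing thymocytes, had 3679, 3886 and 4187 against 3976, 4198 and 4570 (−0.11, adjusted p = 0.00015) and was at −0.002 (adjusted p = 0.961) at equal depth and −0.18 (adjusted p = 2.62e-06) without the S-phase cells. Of the whole list of 13, 6 rose and 4 fell, and of the 11 tested at equal depth 5 rose and 3 fell, where all genes rose in 19.1% and fell in 18.5% of cases, and in 18.6% and 16.2% at equal depth.

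Of 11 quiescence factors, 6 fell and 1 rose against the other cells (median −0.09), and 3 fell and 1 rose at equal depth (median −0.03). Of all genes 18.5% fell, and 16.2% at equal depth. Bach2, a repressor that keeps lymphocytes resting, had 284, 376 and 432 CPM in gated and 549, 616 and 837 in other cells (−0.74, edgeR adjusted p = 1.8e-08), and Foxp1 fell by 0.22 on the log2 scale (adjusted p = 2.1e-07, and −0.14 at equal depth); the lobes of the classes did not overlap for either. The anti-proliferative gene Btg1 fell by 0.15 (adjusted p = 0.00037) and was at −0.03 (adjusted p = 0.486) at equal depth and −0.24 (adjusted p = 9.48e-06) without the S-phase cells. Btg2 was the member that rose, by 0.17 (adjusted p = 0.00048).

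Genes of the double-positive stage differed little from the other cells. Of 16 in the list, 7 rose and 4 fell against all other cells (median log2 fold change 0.03), where 19.1% of all genes rose and 18.5% fell. At equal depth 11 rose and 3 fell (median 0.14), against 18.6% and 16.2% of all genes. Without the S-phase cells among the other cells 7 rose and 7 fell (median −0.04), against 21.7% and 20.8% of all genes, so the balance of the list changed with the cells compared. Cd8a had 549, 649 and 734 CPM in gated and 445, 503 and 612 in other cells (0.32, edgeR adjusted p = 2.2e-08), higher in 8 of 8 lobes although the ranges overlapped. Cd4 had 530, 630 and 698 against 511, 646 and 777 (−0.04, adjusted p = 0.33) and was at 0.11 (adjusted p = 0.00239) at equal depth, but at −0.14 (adjusted p = 0.00135) without the S-phase cells. The lobes of the classes overlapped for both genes.

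The recombination genes went different ways. Rag1 had 723, 855 and 969 CPM in gated and 813, 1045 and 1130 in other cells (−0.23, edgeR adjusted p = 2.4e-06, and −0.09, adjusted p = 0.00974 at equal depth), lower in 8 of 8 lobes. Rag2, its partner in the same recombinase, had 60.7, 80.5 and 91.4 against 48.1, 62.5 and 73.3 CPM (0.37, adjusted p = 2.3e-06), and Dntt, which adds bases at the joints, rose by 0.21 (adjusted p = 3.2e-05), both higher in 8 of 8 lobes. Trac, the alpha chain constant region, had 79.4, 106 and 124 against 116, 141 and 162 CPM (−0.43, adjusted p = 3.6e-06, and −0.24 at equal depth), while Trbc2, a beta chain constant region, rose by 0.24 (adjusted p = 5e-07). Each of these genes kept its sign in every lobe, and the ranges of the classes overlapped for all of them.

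Trdc, the constant region of the T cell receptor delta chain, rose by more than any gene of the double-positive list. It had 89.2, 106 and 119 CPM in gated and 36.0, 44.5 and 48.7 in other cells (log2 fold change 1.203, edgeR adjusted p = 1.1e-10), and 41.3% ± 3.84 of gated cells held a UMI of it against 25.2% ± 2.91 of other cells of the same depth. The classes did not overlap. The log2 fold change was 0.88 (adjusted p = 1.44e-11) at equal depth. S-phase cells were high in Trdc as well, with 63.6, 84.4 and 102 CPM against 89.0, 106 and 118 in gated cells (0.31, edgeR adjusted p = 1e-06), and those lobes overlapped. Trdc lies at chr14:54142851-54148868 (GRCm38, GENCODE M21) inside the alpha chain locus, and alpha chain joining removes it from the chromosome; the antisense gene Gm43434 and Trdv5 overlap it, and whether the counting used strand was not stated. Of the other gamma-delta and innate-like markers tested, Zbtb16 (0.21, adjusted p = 0.24), Sox13 (−0.02, adjusted p = 0.97) and Klrb1c (−0.12, adjusted p = 0.83) did not pass. At equal depth Zbtb16 was at −0.10 (adjusted p = 0.604) and Sox13 at −0.22 (adjusted p = 0.563). Without the S-phase cells Sox13 was at 0.05 (adjusted p = 0.9) and Klrb1c at −0.27 (adjusted p = 0.621).

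Among 8 genes of beta selection and the pre-TCR stage, 3 rose and 2 fell, where 19.1% of all genes rose and 18.5% fell. At equal depth 2 of 7 rose and 2 fell, against 18.6% and 16.2% of all genes. Without the S-phase cells 4 of 8 rose and 2 fell, against 21.7% and 20.8% of all genes. Notch3, a target and member of the Notch family, had 57.5, 72.4 and 99.6 CPM in gated and 40.4, 46.0 and 70.4 in other cells (0.56, edgeR adjusted p = 2.9e-06), and Notch1 was at 0.43 (adjusted p = 5.2e-07, and 0.17, adjusted p = 0.000891 at equal depth), both higher in 8 of 8 lobes. Il7r, the interleukin 7 receptor, had 55.4, 66.7 and 77.3 against 81.1, 95.1 and 106 (−0.45, adjusted p = 3.1e-07). Il7r was the one of the 3 whose lobes did not overlap.

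Genes of later stages were lower. Of 11 genes that follow T cell receptor signalling, 9 fell and 1 rose (median −0.45), and of 8 genes of mature single-positive cells 8 fell (median −0.51), against 18.5% of all genes. At equal depth 9 of 11 and 6 of 7 fell, against 16.2% of all genes. Tox, a factor of positive selection, had 1191, 1328 and 1507 CPM in gated and 1648, 1920 and 2127 in other cells (−0.50, edgeR adjusted p = 1.7e-07). Cd5, set by receptor signal strength, had 173, 202 and 239 against 273, 285 and 355 (−0.47, adjusted p = 1.3e-06). No gated lobe reached the lowest lobe of other cells for either gene, nor for Cd53 (−0.63, adjusted p = 1.8e-07) or Ikzf2 (−0.39, adjusted p = 3.6e-06).

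Ccr7, the chemokine receptor that leads selected cells to the medulla, had 35.9, 44.3 and 59.0 CPM in gated and 59.7, 73.5 and 104 in other cells (−0.70, edgeR adjusted p = 3.1e-08). Bcl2, the survival factor of mature thymocytes, had 310, 322 and 370 against 445, 482 and 644 (−0.58, adjusted p = 1.4e-07), and S1pr1, needed for exit from the thymus, fell by 0.44 (adjusted p = 0.00015). The classes were apart for Ccr7 and Bcl2. Gata3 was the signalled gene that rose, by 0.13 (adjusted p = 0.0069), in 7 of 8 lobes. Of the general T cell genes, Bcl11b rose by 0.27 (adjusted p = 1.1e-08), and 5 of 8 fell by little against 18.5% of all genes, among them Lck (−0.13, adjusted p = 0.00013, and −0.05, adjusted p = 0.17 at equal depth).

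Of 15 glycolysis genes 1 rose against the other cells, Gapdh (0.30, edgeR adjusted p = 4.7e-05), and 4 fell, among them Pfkp (−0.26, adjusted p = 2e-05), with a median of −0.06, where 19.1% of all genes rose and 18.5% fell. Gapdh was at 0.14 (adjusted p = 0.0523) at equal depth and 0.43 (adjusted p = 2.64e-06) without the S-phase cells. In the latter comparison 3 of the 15 rose and 3 fell, near the 21.7% and 20.8% of all genes. WT 1 stood apart in the list, with a median log2 ratio of −0.32 against −0.07 over the lobes, and without WT 1 1 gene rose and 3 fell (median −0.04).

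**Figure D3:**
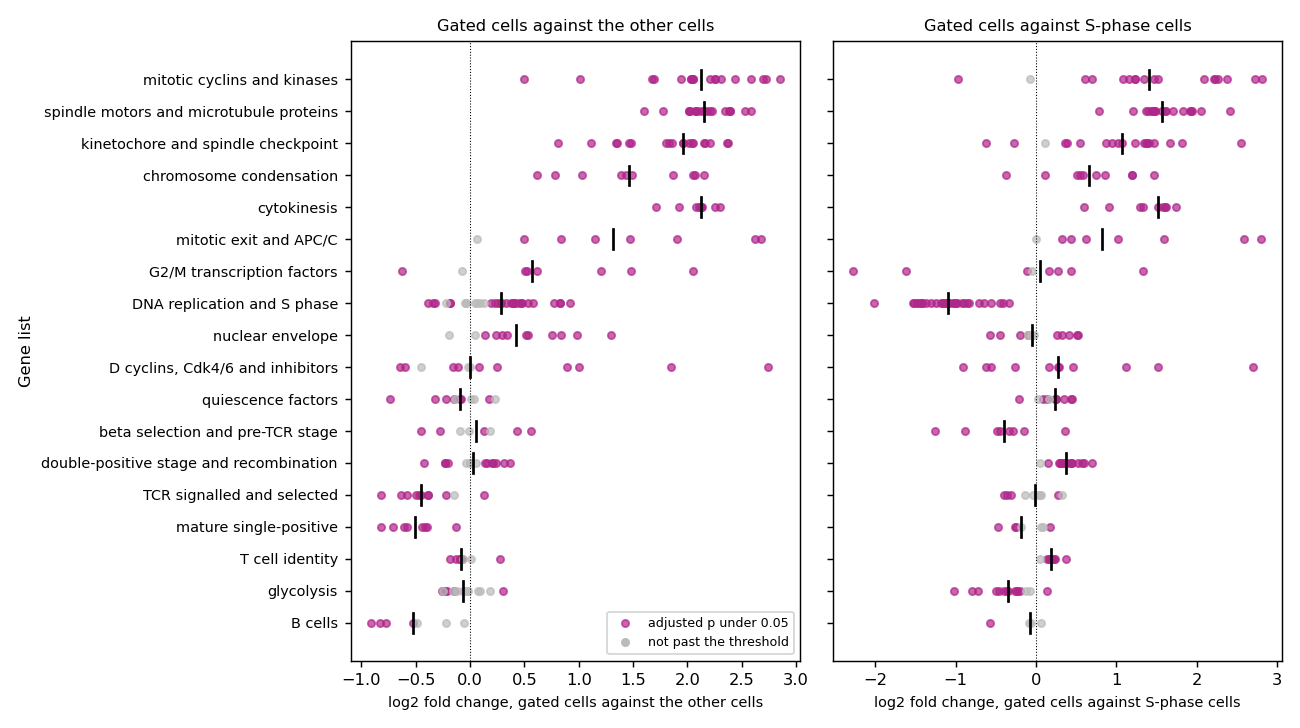
Log2 fold change of each tested gene of 18 lists between gated cells and all other cells (left) and between gated and S-phase cells (right); each point is a gene, coloured when its adjusted p is under 0.05, and each black bar is the list median. The medians of the mitotic lists lie right of 0 in both panels, with 4 of their 75 genes lower against S-phase cells, the medians of mature and signalled genes lie left of 0 on the left, and all replication genes lie left of 0 on the right.

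Outside the rule and the lists, the 10 genes with the largest rise against the other cells were Pif1, Pimreg, Sdk1, Parpbp, Gas2l3, Troap, Efcab11, Cep89, Dlgap5 and Plekhg3, with log2 fold changes from 2.48 to 3.15. Pif1, a DNA helicase, had 54.7, 72.3 and 79.0 CPM in gated and 3.48, 7.28 and 10.9 in other cells (3.15, edgeR adjusted p = 5.8e-12). Dlgap5 and Troap bind spindle microtubules and Gas2l3 links actin with microtubules at division; they were at 2.50, 2.81 and 2.84 (adjusted p = 6.3e-12, 2e-11 and 8.1e-12). The 10 were higher in each gated sum than in any sum of other cells.

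Sdk1, a cell adhesion protein of the immunoglobulin family best known from synapses, was the third of them. It had 97.0, 119 and 156 CPM in gated and 9.57, 15.6 and 19.6 in other cells (2.92, edgeR adjusted p = 4e-12), and 2.65 (adjusted p = 4.6e-17) at equal depth. A UMI of it was found in 34.4% ± 3.59 of gated cells, 8.11% ± 1.14 of other cells of the same depth and 3.41% ± 0.58 of all other cells. The gene spans chr5:141241490-142215586 (GRCm38, GENCODE M21), 974097 bases on the plus strand, and 7 short annotated genes lie within it on the minus strand. Its RefSeq window held TTTGAA 135 bases and CCAAT 76 bases before the start.

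The 10 largest falls were smaller, from −1.01 to −0.73: Bank1, Slfn5, Slit3, Samhd1, Crim1, Abca1, Tle1, Setbp1, Inpp4b and Pacsin1. Slfn5, of a family linked to lymphocyte quiescence, had 10.1, 14.1 and 17.9 CPM in gated and 24.8, 27.3 and 31.7 in other cells (−0.88, edgeR adjusted p = 4.8e-08). Samhd1, which breaks down deoxynucleotides in resting cells, had 23.2, 37.4 and 53.7 against 56.2, 70.2 and 93.9 (−0.81, adjusted p = 8.2e-08), and Inpp4b, a phosphoinositide phosphatase, had 339, 439 and 549 against 644, 716 and 972 (−0.75, adjusted p = 9.9e-09). The classes were apart for these 3, picked like the rises by size and 1 sign in all lobes. Bank1, a B cell scaffold, had 1.72 to 35.9 against 18.4 to 84.0 CPM (−1.01, adjusted p = 0.00022, and −0.62, adjusted p = 0.00691 at equal depth) and moved with the B cell markers above; Setbp1 was at −0.10 (adjusted p = 0.589) at equal depth.

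S-phase cells gave the closest comparison, since they came from the same lobes, passed the same limits and had nearly the same depth. Of 10569 genes tested, 5312 (50.3%) passed, 2743 (26%) higher and 2569 (24.3%) lower in gated cells, so the background share of calls was high. Of the 75 mitotic genes, 69 were higher and 4 lower in gated cells. Cdc25c (2.81), Ube2c (2.81), Ccnb1 (2.72), Cdc20 (2.59) and Cenpa (2.55) were far apart on the log2 scale. Their lobe ranges in S-phase cells (Ccnb1 10.98, 12.8 and 15.5 CPM; Cdc20 5.27, 9.80 and 13.6) overlapped with those of all other cells. Mki67 (1.19) and Top2a (1.19), at 751 to 929 and 534 to 709 CPM in S-phase cells, were closer, as were Kif15 (0.78) and Ccna2 (1.52).

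The mitotic genes that were higher in S-phase cells were Pkmyt1 (−0.97), Kntc1 (−0.62), Ncapg2 (−0.38) and Cenpk (−0.27), and Wee1 (−0.07, edgeR adjusted p = 0.36) and Zwilch (0.12, adjusted p = 0.081) did not pass. Foxm1 was higher in gated cells (1.34), whereas Mybl2 (−1.62) and E2f1 (−2.28) were lower. E2f1 had 6.46, 11.6 and 13.1 CPM in gated and 39.1, 53.3 and 65.2 in S-phase cells. All 33 replication genes were lower in gated cells, with Mcm6 at −1.53 (73.6, 83.7 and 90.7 against 220, 239 and 283 CPM) and Pcna, the sliding clamp, at −1.18. Rrm1 (−0.41) and Rrm2 (−0.45) were among the closest. Both gates used genes of these programmes, so the counts describe the gates.

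Double-positive genes were higher in gated than in S-phase cells. Of 16, 15 rose (median 0.37, against 0.014 over all genes and 26% of all genes called higher), and Cd28 did not pass (0.04, edgeR adjusted p = 0.2). Cd4 had 537, 629 and 692 CPM in gated and 317, 434 and 468 in S-phase cells (0.57, adjusted p = 9.9e-17), and Cd8a had 555, 650 and 737 against 374, 425 and 471 (0.60, adjusted p = 6.9e-21). For both, as for Ccr9, Themis and Satb1 (0.45, 0.44 and 0.35), the lowest gated lobe was above the highest S-phase lobe; classes were apart, in either direction, for 10.2% of all genes tested. Rag2 was at 0.70 (adjusted p = 3.7e-11) and Rag1 at 0.31 (adjusted p = 1.7e-11), higher in 8 of 8 lobes. WT 1 lay far above the other lobes in several of these genes; without it 15 of 16 still rose, with a median of 0.36.

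Genes of the preceding stage moved the other way. Of 8 beta selection genes, 7 fell and 1 rose against S-phase cells (median −0.40), where 24.3% of all genes fell. Tfrc, the transferrin receptor that marks growing cells, had 73.8, 89.4 and 98.2 CPM in gated and 109, 125 and 139 in S-phase cells (−0.49, edgeR adjusted p = 1.8e-12), with no overlap. Myc was at −0.88 (adjusted p = 3.7e-08), lower in 8 of 8 lobes, and Notch1 at −0.29 (adjusted p = 8e-08). Notch3 rose by 0.37 (adjusted p = 2e-06). Without WT 1, 6 of 8 fell.

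Metabolic and cycle entry genes differed in the same comparison. Of 15 glycolysis genes, 12 fell and 1 rose (median −0.35, all genes 24.3% lower), with Ldha at −0.50 (edgeR adjusted p = 3.9e-09), Pkm at −0.40 (adjusted p = 7.6e-09) and Tpi1 at −0.80 (adjusted p = 1.1e-08); the one that rose, Hk1, did so by 0.13 (adjusted p = 0.011) and was lost with DESeq2 (adjusted p = 0.0891). Of 11 genes tested in the list of D cyclins, their kinases and inhibitors, 7 rose and 4 fell (median 0.28), against 26% and 24.3% of all genes. Cdk4 (−0.91, adjusted p = 1.4e-13) and Cdk6 (−0.63, adjusted p = 1e-17), the partners of the D cyclins, fell without overlap, at 14.9 to 33.1 against 35.1 to 61.7 CPM for Cdk4. Ccnd3 rose by 0.28 (adjusted p = 7.6e-14) and Ccnd2 fell by 0.56 (adjusted p = 1e-09). Cdkn2d had 19.2, 23.8 and 33.3 against 4.91, 7.67 and 12.8 CPM (1.51, adjusted p = 3.3e-15), and Cdkn1b was at 0.46 (adjusted p = 7e-13).

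Quiescence factors were mostly higher in gated than in S-phase cells: 8 of 11 rose and 1 fell (median 0.23, all genes 26% higher), with Btg2 at 0.44 (edgeR adjusted p = 8.7e-10), Btg1 at 0.35 (adjusted p = 1.5e-11) and Bach2 at −0.21 (adjusted p = 7.7e-05). Of 8 T cell identity genes 7 rose, led by Bcl11b at 0.38 (adjusted p = 2.9e-16), and Lef1 did not pass (0.05, adjusted p = 0.096). WT 1 stood apart in this list (0.30, median of lobes 0.18) and in Bcl11b (0.58, median 0.36), and without it 8 of 8 rose, with a list median of 0.18. Of 10 signalled genes 1 was higher and 3 were lower here, and of 7 mature genes 1 was higher and 3 were lower, where 26% of all genes were higher and 24.3% lower. Ikzf2 (−0.40, adjusted p = 3e-07) and Nr4a1, an immediate target of receptor signalling (−0.36, adjusted p = 6.2e-10), were lower in 8 of 8 lobes.

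**Figure D4:**
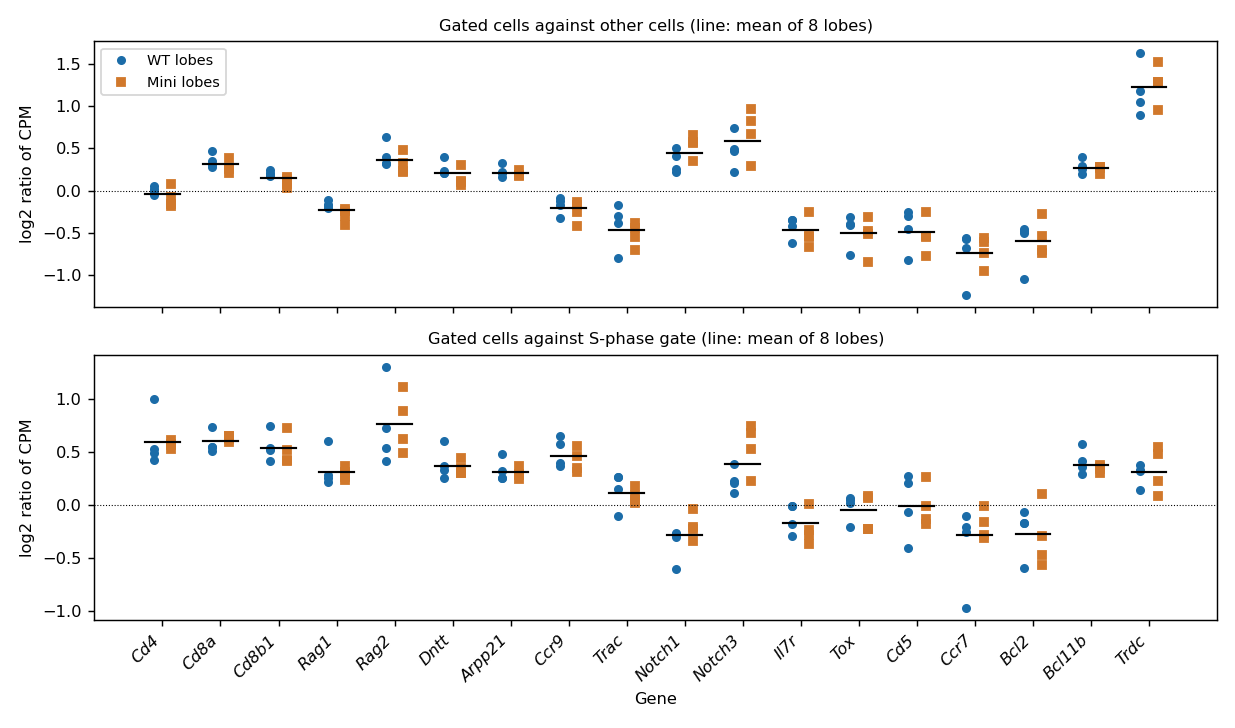
Log2 ratio of CPM between gated and other cells (top) and between gated and S-phase cells (bottom) for 18 stage genes; blue circles are the 4 WT lobes, orange squares the 4 Mini lobes and lines the mean of 8 lobes. Cd4 lies at 0 in the top panel and above 0 in every lobe in the bottom panel, and Tox, Cd5, Ccr7 and Bcl2 lie below 0 in every lobe in the top panel.

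Outside the lists, Pif1 showed the largest rise against S-phase cells, with 55.3, 73.1 and 79.1 CPM in gated and 2.34, 4.17 and 5.68 CPM in S-phase cells (4.03, edgeR adjusted p = 9.7e-29). Sdk1 (3.08), Gas2l3 (2.99), Cep89 (2.89), Pimreg (2.83), Troap (2.80), Parpbp (2.68), Tuba1c (2.53), Emp1 (2.49) and Knstrn (2.30), a kinetochore protein, followed. All 10 were apart between the classes. The 10 largest falls were led by Ung, the uracil-DNA glycosylase of repair, with 1.49, 2.27 and 3.39 against 14.4, 23.2 and 27.1 CPM (−3.19, adjusted p = 5.7e-21), and Shmt1, an enzyme of folate metabolism, at −2.29 (adjusted p = 2.4e-17). The others were Zmynd19, Smyd2, Rapgef5, Pla2g4a, Pask, Tnfrsf21, Pidd1 and Dscc1, from −1.95 to −1.56, and of the 10 only Pla2g4a overlapped between classes. Rises and falls were picked by size and 1 sign in all lobes, so this separation was largely set by the choice. Classes were apart for 10.2% of all genes tested.

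The gated cells were not uniform, and the S score ordered some of their genes. S was 0 in 948 of them (18.6%; median 6324 UMIs, median M of 12) and at least 5 in 1513 (29.6%; 12672 UMIs, M of 23), so the sets differ in depth and the split uses a gene set of the rule; values are given with no test. Cells with S of 0 had more Ccnb1 (105 against 76.9 CPM over all lobes), Cdc20 (71.2 against 52.3), Cenpa (174 against 140), Cdc25b (76.3 against 55.7) and Ube2c (91.0 against 73.1). Cdc20, Cenpa, Cdc25b and Ube2c were higher in 8 of 8 lobes and Ccnb1 in 7. Top2a (1177 against 1464 CPM), Kif11 (471 against 607) and Ccna2 (75.7 against 101) went the other way, in 8, 8 and 7 of 8 lobes. So did Plk1 (32.4 against 39.4 CPM), which was higher with S of 0 in 2 of 8 lobes, so these mitotic genes had no common direction. The gate lets a cell with S of 5 pass only with M of at least 10. Plk1 (23.8 CPM with M of 6 to 9, 43.9 with M of 20 or more), Kif11 (369.5 and 641), Top2a (1018 and 1532) and Ccna2 (60.5 and 113) were higher in cells of higher M. So were the genes that were higher with S of 0: Ccnb1 (51.96 and 95.76), Cdc20 (47.88 and 62.35), Cenpa (104.9 and 173.2), Cdc25b (40.46 and 68.95) and Ube2c (56.23 and 82.57). The part of M in these differences was not tested.

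Stage genes followed the same split. Cd4 was at 696 CPM in gated cells with S of 0 and 497 in those with S of at least 5, Rag1 at 906 and 690, Rag2 at 93.4 and 59.5 and Ccr9 at 587 and 393, each higher in 8 of 8 lobes, with mean log2 ratios from 0.49 to 0.74. Tfrc (63.7 against 93.3 CPM) and Cdk6 (205 against 288) were lower in 8 of 8 lobes. The beta selection list, which holds Tfrc, had no common direction. Notch1 (134.9 against 175.4 CPM) was higher with S of 0 in 1 of 8 lobes, but Notch3 (89.9 against 70.4) in 7. Among the genes whose log2 ratios were averaged over lobes, Sdk1 had the largest positive mean, 0.98 ± 0.50 (SD, n = 8 lobes). Sdk1 was at 161 against 78.6 CPM. Genes with values over all lobes only, such as Zbtb16 (31.1 against 13.1 CPM) and Sox13 (9.23 against 3.99), were not ranked. The replication genes Mcm6, Pcna and Rrm2 were at −1.51, −1.35 and −1.68. The part of depth in these differences was not tested.

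**Figure D5:**
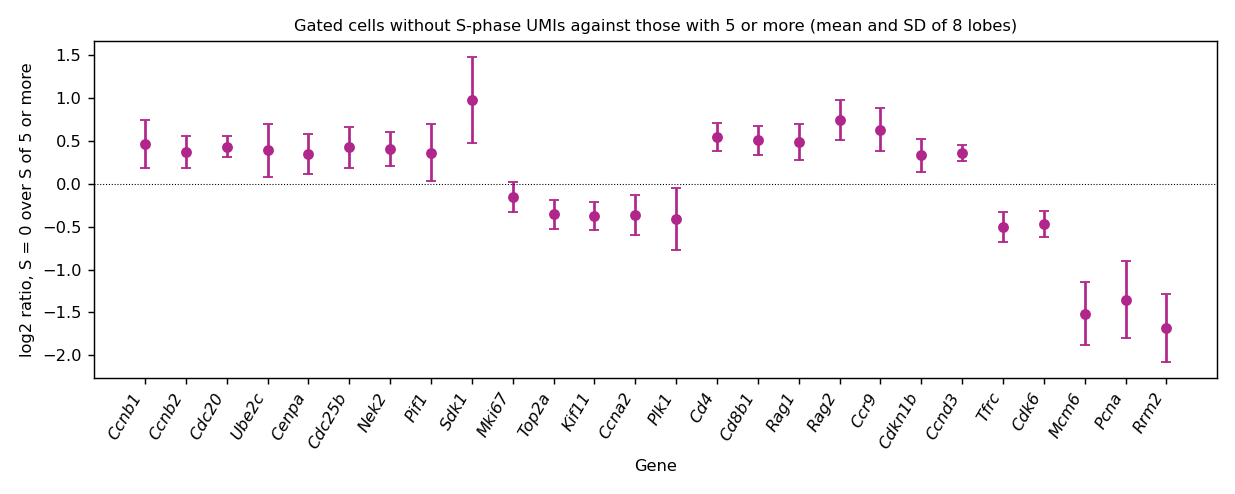
Mean log2 ratio of CPM between gated cells with no S-phase UMI and gated cells with 5 or more, for 26 genes, with error bars of 1 SD over 8 lobes. Cdc20 (0.43) and Rag2 (0.74) lie above 0, and Plk1 (−0.41), Top2a (−0.35) and Rrm2 (−1.68) lie below.

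The difference between gated and other cells was compared between the 2 kits with an interaction term. No gene of 13930 (0%) passed an adjusted p of 0.05 in edgeR, and DESeq2 called 0. An unadjusted edgeR p under 0.05 was found for 616, no more than the share of 0.05 that chance alone gives. Without WT 1, however, 44 genes passed, 5 with a higher and 39 with a lower value in WT. The smallest p belonged to Zbtb16, the factor of innate-like T cells (edgeR adjusted p = 0.857). Its log2 ratio of gated to other cells was 0.17, 0.55, 0.40 and 0.64 in WT 1 to 4 and −0.42, −0.74, −0.94 and 0.26 in Mini 1-A, 1-B, 2-A and 2-B. The kits overlapped through Mini 2-B. Chn2, H2ac10, Myb, H2bc4, Krcc1, Adcy7, Cep192, Boll and Hnrnpa0 came next, with adjusted p of 0.975 each. The mean log2 ratio over lobes was 1.93 in WT and 2.22 in Mini for Mki67, and 2.74 in WT and 3.06 in Mini for Ccnb1.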

How the data were processed

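Cells of 8 thymic lobes were measured with Parse Evercode split-pool kits and sequenced on Illumina. The deposited matrices hold UMI counts per cell and gene, made by the authors and not normalized; split-pipe mapped the reads to mm10, and its version was not stated. The submitters' processing notes also name Cell Ranger, which served the 10x libraries. The UMI total of each cell equalled the total in the cell table. Lobes were taken from the cell tables, since each library mixes all lobes of a kit. Well combinations shared between the kits numbered 0; 2196 gated cells had a combination that also occurs in another library of their kit, and library and combination together name a cell. The 10x libraries were not analysed here.

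Counts were summed per lobe and class, Rn18s-rs5, mt-Rnr1 and mt-Rnr2 were left out, and edgeR 4.0.16 (R 4.3.3; filterByExpr, TMM, glmQLFit and glmQLFTest, two-sided) was fitted with the lobe as a block. Ribosomal RNA took 20.4% ± 5.51 of UMIs in gated and 18.1% ± 5.69 in other cells. P-values were adjusted by Benjamini-Hochberg over all genes tested; the 15 genes of the rule stayed out of the tests. Lobe ranges are TMM-scaled CPM, and log2 ratios per lobe used a pseudocount of 0.5 CPM. Named genes outside the lists were the 10 largest rises and falls past the threshold with 1 sign in all lobes and at least 20 CPM, without symbols starting with Gm or ending in Rik; for the kits, the 10 smallest p. Of 57010 gene identifiers, 91.3% were found in GENCODE M21. In simulated counts, the fit recovered 98.0% of log2 changes of 1 and 69% of 0.5 against other cells, 100% and 73.1% against S-phase cells, and 71.7% and 17% for the interaction. The simulation used the same fixed dispersion for every gene and independent lobes. It therefore does not give the recovery in the real lobes, which share mice.

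The alternatives were DESeq2 1.42.0, no filter on low counts, ribosomal RNA kept, M of at least 10 (and 4 for the share), at most 10000 UMIs, no replicate block, lobes summed to 4 assumed animals, other cells of equal depth (drawn within bins of 1000 UMIs) or without S-phase cells, thinning to 4000 UMIs, at most 15% mitochondrial UMIs and each lobe left out; equal depth for the kits was added after seeing the data. The gated cells and the gene lists were chosen with earlier results of these data known.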

Additional observations from a re-analysis of the deposited data

Results flagged for a closer look

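Of 236 sets of lobe values examined, 21 held 1 lobe far from the others. Chance alone gives about 1 in 20 for independent sets of independent lobes. Here lobes share mice, and list medians include genes also examined alone, so that rate is only a rough mark. In 16 of the 21 that lobe was WT 1. For log2 ratios of gated to S-phase cells, WT 1 stood apart in Cd4 (1.00, median of 8 lobes 0.55), Rag1 (0.60, median 0.27), Themis (0.68, median 0.43), Satb1 (0.50, median 0.34), Bcl11b (0.58, median 0.36) and Ccnd3 (0.41, median 0.26), all higher there. It was lower in Myc (-2.01, median -0.83), Ikzf2 (-1.21, median -0.30), Ccr7 (-0.97, median -0.23), Smyd2 (-2.98, median -1.69) and Ccnd2 (-1.21, median -0.59).

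List medians of WT 1 against S-phase cells stood apart for the double-positive stage (0.60, median 0.36), T cell identity (0.30, median 0.18) and beta selection (-0.66, median -0.38). Against the other cells, WT 1 stood apart in Ccnd2 (-1.12, median -0.63) and the glycolysis list (-0.32, median -0.07). Mini 2-B stood apart in Wee1 (0.50, median -0.13) and the mitotic exit list (1.31, median 0.86) against S-phase cells, and in the list of D cyclins and inhibitors against the other cells (0.30, median 0.04). Mini 1-B was low in Tpi1 against S-phase cells (-1.70, median -0.72), and Mini 2-A was low in Lmna against the other cells (-1.30, median -0.22). WT 1 gave 222 gated cells, the fewest of the 8 lobes, and the part of its small number in these values was not tested.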

How the results depend on the processing

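The samples were paired by tissue, since both classes came from the same lobe. With no replicate block, genes passing fell from 5247 to 3054 against the other cells (1670 higher and 1384 lower) and from 5312 to 3442 against S-phase cells (1661 higher), 3051 and 3441 of them called with the block as well. DESeq2 called 4708 and 4122. Without the filter on low counts the median log2 fold change against the other cells moved from -0.01 to -0.12, and the share of calls that were higher from 50.7 to 37.2%. Each lobe left out in turn gave 4650 to 5075 and 4841 to 5220 called genes. For the kits, no filter gave 40 genes (12 higher and 28 lower in WT), M of at least 10 gave 1, higher in WT, and leaving out a lobe gave 0 to 44, with 0 to 5 higher and 0 to 39 lower; the 44 came without WT 1.

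The difference in share between WT and Mini turned to -1.41 points (exact permutation p = 0.714) with each cell thinned to 4000 UMIs and to -0.035 (p = 1.0) with M of at least 10, and ran from 0.04 to 1.81 with a lobe left out. Of the 100 and 82 named genes followed in all settings, these turned sign. With at most 10000 UMIs, Pttg1 (-0.050), Mybl2 (0.57) and Mcm6 (0.16) did, and E2f1 lost its call (-0.045, adjusted p = 0.859). Against other cells of equal depth, Pkmyt1 (-0.0091) and Cd4 (0.11) did, and without S-phase cells Mybl2 (0.61), E2f1 (0.18) and Mcm6 (0.34). The cause was not tested. Against the other cells, 12 calls were lost without the block (Mcm6, Ccnd3, Btg1, Btg2, Gata3, Lck, Gapdh, Pax5, Ebf1, S100a9, Bank1 and Setbp1), 6 at equal depth (Ccnd3, Btg1, Ccr9, Lck, Gapdh and Setbp1), and Gata3 without the filter. Against S-phase cells, Il7r, Hk1, Notch1, Nr4a1 and Ccr7 were lost without the block, Hk1 and Il7r with DESeq2, Ccr7 with at most 10000 UMIs, and Il7r in 3 further settings and without WT 4, Mini 2-A or Mini 2-B. Depth limits the gate, since few cells under 2000 UMIs could reach M of 6, and 2 mice per kit limit what the lobes can show.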
